A study of Mus musculus with 10 samples.

Results

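T cell receptors whose beta chain uses the V gene TRBV26, known by its older name as Vbeta3, were described in splenic regulatory T (Treg) cells of mice. A receptor was counted as a TRBV26 receptor when its V gene name was TRBV26 and its CDR3 ended in the residues of a beta chain J gene. The rule found 10085 of the 387286 entries in the tables, and joining entries of 1 library with the same V gene, J gene and CDR3 nucleotides left 10084 TRBV26 clonotypes of 193000 beta chain (TRB) clonotypes. They were 5.22% of the TRB clonotypes and 5.94% of the TRB counts. Another 12242 entries named TRBV26 lacked a beta J end and were left out, since the protocol amplified both chains while the tables gave beta gene names to all entries. The 5 CNS4KO libraries came from mice deficient in CNS4, an enhancer of Foxp3, and the 5 CNS4Flox libraries from mice of the floxed strain, which the labels mark WT. Foxp3 encodes the transcription factor that defines Treg cells. The labels give spleen as the tissue and no treatment for all 10 libraries, and name neither a Cre driver, an age, nor the number of cells or mice behind a library. Gene expression was not measured, so the Treg identity of the cells could not be checked against Foxp3 or other markers.

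A beta chain is made by joining a V, a D and a J gene segment. The enzymes that open the segments trim their ends, and terminal deoxynucleotidyl transferase adds bases that no gene encodes, here called inserted bases. The joined region is the CDR3 loop, which lies over the peptide when a receptor binds peptide and MHC. Vbeta3 is known in mice for its response to superantigens: staphylococcal enterotoxin B engages Vbeta3 T cells, and some endogenous mouse mammary tumour proviruses delete them in the thymus. It is also used by well studied receptors specific for cytochrome c.

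TRBV26 lies on chromosome 6 at chr6:41227525-41227913 (RefSeq, GRCm38.p6), where it is annotated as a V segment with the synonym Tcrb-V3. The part of it that reaches into the CDR3 was read from the clonotypes themselves, as the majority base among entries whose V match reached that far. It is shown because the length of V sequence kept is one of the measures below.
TRBV26 end in the CDR3: tgtgccagcagtctgtc
The deposited V match reached the last of these 17 bases in 1160 clonotypes, or 11.5%, of which not all matched at every base: 1100 clonotypes carried the 17 bases unchanged. The mean length of the V match was 13.8 bases.

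The most abundant TRBV26 clonotype of each library is given next by its CDR3, because the counts of these receptors are described below. Capitals mark inserted bases, those outside the V, D and J matches. A D match can be short: it is 3 bases long in CNS4Flox 2, on the opposite strand of the D segment, and 3 bases long in CNS4Flox 5. The V match is as deposited and can include a base that differs from the V end above, as it does in 1 of the 10, that of CNS4Flox 3. The CNS4KO 4 sequence uses TRBJ1-6, whose J start is not placed reliably in the tables, so none of its bases is marked.
CNS4KO 1: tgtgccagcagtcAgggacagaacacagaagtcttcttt
CNS4KO 2: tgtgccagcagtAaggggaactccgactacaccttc
CNS4KO 3: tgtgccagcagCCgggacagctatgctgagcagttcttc
CNS4KO 4: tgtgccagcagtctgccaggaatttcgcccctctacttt
CNS4KO 5: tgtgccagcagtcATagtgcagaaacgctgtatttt
CNS4Flox 1: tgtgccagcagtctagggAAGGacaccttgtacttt
CNS4Flox 2: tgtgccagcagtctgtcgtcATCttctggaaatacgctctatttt
CNS4Flox 3: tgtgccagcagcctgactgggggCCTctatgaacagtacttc
CNS4Flox 4: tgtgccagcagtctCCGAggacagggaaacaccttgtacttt
CNS4Flox 5: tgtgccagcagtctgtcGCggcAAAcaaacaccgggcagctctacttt

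The 5 amino acid clonotypes found in the most libraries are given by their most widespread nucleotide version, with the same meaning of the capitals. They are shown because few of their bases lie outside the germline segments. The marks follow the D gene that was called. In the TRBJ2-5 sequence the marked G continues a run of G and would not be marked under a TRBD2 call.
shared in 10 libraries, TRBJ2-7: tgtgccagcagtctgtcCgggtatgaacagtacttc
shared in 9 libraries, TRBJ2-4: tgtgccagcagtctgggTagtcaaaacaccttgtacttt
shared in 8 libraries, TRBJ2-1: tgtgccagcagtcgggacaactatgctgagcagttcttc
shared in 8 libraries, TRBJ2-5: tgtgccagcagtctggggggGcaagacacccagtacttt
shared in 8 libraries, TRBJ2-7: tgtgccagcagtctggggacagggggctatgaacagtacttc

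The libraries held 19199 to 34833 TRB counts, of which 956 to 2140 were TRBV26. TRBV26 clonotypes numbered 1031, 615, 903, 920 and 1176 in the CNS4KO libraries and 987, 1242, 1210, 1049 and 951 in the CNS4Flox libraries. CNS4KO 2 was the shallowest for TRBV26, with 956 counts. CNS4KO 5 and CNS4Flox 3 had 64 TRBV26 nucleotide clonotypes in common, while the other 44 pairs of libraries had 5 to 27. The shared 64 were 5.44% of the TRBV26 clonotypes of CNS4KO 5 and 5.29% of those of CNS4Flox 3, and 17 of them were also in another library. They held 8.66% of the TRBV26 counts of CNS4KO 5 and 10.9% of those of CNS4Flox 3. Among TRBV26 clonotypes with 10 or more counts, they were 1 of 8 in CNS4KO 5 and 5 of 10 in CNS4Flox 3. No replicate libraries had identical TRBV26 tables. The exact permutation tests of single TRBV26 values between the groups were also made without this pair. The values at 300 counts and the shares of amino acid clonotypes found in several libraries were recomputed likewise. Results without the pair are given where they change. The tests of V genes, V-J pairs and single clonotypes were not rerun without both libraries. Nor were the permutation tests of TRBV26 against the other TRBV genes, or of its distance from them between groups. Whether a count is a read or a molecule is not stated, so the intervals below cover counting error only. The labels do not say that the libraries of a group came from separate mice, so p-values measure the spread between these libraries.

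TRBV26 was the third most used V gene by counts among 22 and the eleventh by distinct clonotypes. Its share of TRB counts was 7.93%, 4.98%, 7.12%, 5.07% and 5.72% in the CNS4KO libraries, against 5.47%, 5.46%, 5.56%, 6.69% and 5.64% in the CNS4Flox libraries. The groups overlapped, and the CNS4KO libraries held both the highest and the lowest shares. The 95% Wilson interval was 7.61% to 8.25% for the highest, CNS4KO 1, and 4.68% to 5.30% for the lowest, CNS4KO 2, intervals that cover counting error only. The share averaged 6.16% ± 1.30 in CNS4KO and 5.76% ± 0.52 in CNS4Flox (SD, 5 libraries a group). In edgeR's quasi-likelihood test the log2 fold change, CNS4KO over CNS4Flox, was 0.10 (SE 0.13, adjusted p = 0.791). Of the 22 TRBV genes tested, 0% were called by counts in edgeR, with 1 gene at an unadjusted p under 0.05 and 1 called by DESeq2. The sign of the TRBV26 fold change depended on 1 library: without CNS4KO 1 it was -0.01.

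By distinct clonotypes, TRBV26 made up 5.17% ± 0.84 in CNS4KO and 5.34% ± 0.43 in CNS4Flox (SD, 5 libraries a group). The log2 fold change was -0.05 (SE 0.10, edgeR adjusted p = 0.753), where 13.6% of the TRBV genes were called. Usage of TRBV26 was not shown to differ between the groups by either measure. The 3 genes called by clonotypes were TRBV12-1 at a log2 fold change of 0.40 (edgeR adjusted p = 0.00279), TRBV12-2 at 0.26 (adjusted p = 0.0457) and TRBV29 at -0.23 (adjusted p = 0.0198).

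TRBV26 belongs to 3 groups of V genes listed for these data. Over all 22 TRBV genes, edgeR called 0% by counts and 13.6% by distinct clonotypes, the 3 genes named above. The lists share members, and TRBV29 is in each of them, so they are not separate results. Of the 6 genes whose products are engaged by staphylococcal enterotoxin B, 0 passed by counts and 1, TRBV29, fell by distinct clonotypes. The median log2 fold change of this list was -0.11 by counts and -0.03 by clonotypes, beside -0.04 over all 22 genes on either measure. Of the 9 genes tied to mouse mammary tumour virus superantigens, 0 passed by counts. By clonotypes 2 rose, TRBV12-1 and TRBV12-2, and 1 fell, TRBV29. The median of that list was -0.06 by counts and -0.04 by clonotypes. Of 5 V genes listed for the end of the V array nearest to the D and J segments, TRBV26 among them, 0 passed by counts and 1, again TRBV29, fell by clonotypes, with medians of 0.07 and -0.09.

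TRBV2 was the V gene most like TRBV26 on both measures of likeness. Its J profile differed least, at a total variation distance of 0.055 (0 for identical profiles), followed by TRBV13-3 at 0.063 and TRBV3 at 0.064, over mean shares of distinct clonotypes in 10 libraries. Its share of TRB counts also ran most closely with that of TRBV26 over the 10 libraries, at a Spearman rho of 0.67, followed by TRBV14 at 0.52 and TRBV12-2 and TRBV3 at 0.47. These correlations are descriptions of shares that add up to a fixed total within each library.

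TRBV26 was joined to all 12 J genes, and its J profile differed from that of the other TRBV genes together in 9 of them. J use was not compared gene by gene, so whether single V genes share these differences was not tested. TRBJ1-2 and TRBJ1-3 were joined more often to TRBV26, and TRBJ1-5 less often, in every library. TRBJ2-7 was the most used, at 18.1% ± 1.33 of TRBV26 clonotypes against 19.7% ± 0.87 of clonotypes of the other TRBV genes (SD, n = 10 libraries), followed by TRBJ2-4 and TRBJ2-5. The comparison between TRBV26 and the other genes was made within libraries, by an exact sign-flip permutation test over 10 libraries. It was two-sided and adjusted over the 12 J genes, and its smallest possible p is 0.00195. The test was added after the tables had been seen.

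TRBJ1-3 was used by 9.7%, 7.8%, 9.0%, 7.9% and 8.2% of TRBV26 clonotypes in the CNS4KO libraries and by 6.6%, 7.2%, 7.4%, 8.2% and 8.1% in the CNS4Flox libraries. The mean over the 10 libraries was 8.02% ± 0.87, against 5.39% ± 0.27 for the other TRBV genes, and it was higher in 10 of 10 libraries (exact permutation test, adjusted p = 0.00469). The ratio was 1.49, the largest among the 12 J genes by clonotypes. TRBJ1-2 followed, with 6.18% ± 0.64 against 4.37% ± 0.21 and a ratio of 1.41, also higher in 10 of 10 libraries (exact permutation test, adjusted p = 0.00469). TRBJ2-4 was higher by 1.89 percentage points in 10 of 10 libraries, with the same adjusted p.

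TRBJ1-5 had the lowest ratio, 0.60: 1.71% ± 0.48 of TRBV26 clonotypes against 2.87% ± 0.13 of the others, lower in 10 of 10 libraries (exact permutation test, adjusted p = 0.00469). TRBJ2-1, TRBJ1-1, TRBJ2-5, TRBJ1-4 and TRBJ2-7 were also used less with TRBV26, by 0.76 to 1.6 percentage points, in 8 to 10 of 10 libraries. Without clonotypes with a count of 1, TRBJ2-1 (-0.17, adjusted p = 0.873), TRBJ2-5 (-0.88, adjusted p = 0.401) and TRBJ2-7 (-2.14, adjusted p = 0.0603) no longer passed the exact permutation test. TRBJ1-6, TRBJ2-2 and TRBJ2-3 did not pass. When each clonotype was weighted by its count, TRBJ1-1 (-0.89 percentage points, adjusted p = 0.495) and TRBJ2-5 (-1.78, adjusted p = 0.104) were still lower without passing the exact permutation test, and TRBJ2-1 was higher by 0.45 percentage points (adjusted p = 0.844). The TRBJ2 cluster as a whole took 67.2% ± 2.57 of TRBV26 clonotypes and 68.5% ± 0.88 of the others, a difference that did not pass (exact permutation test, adjusted p = 0.0801), although it did pass without CNS4KO 2 and when weighted by count.

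**Figure D1:**
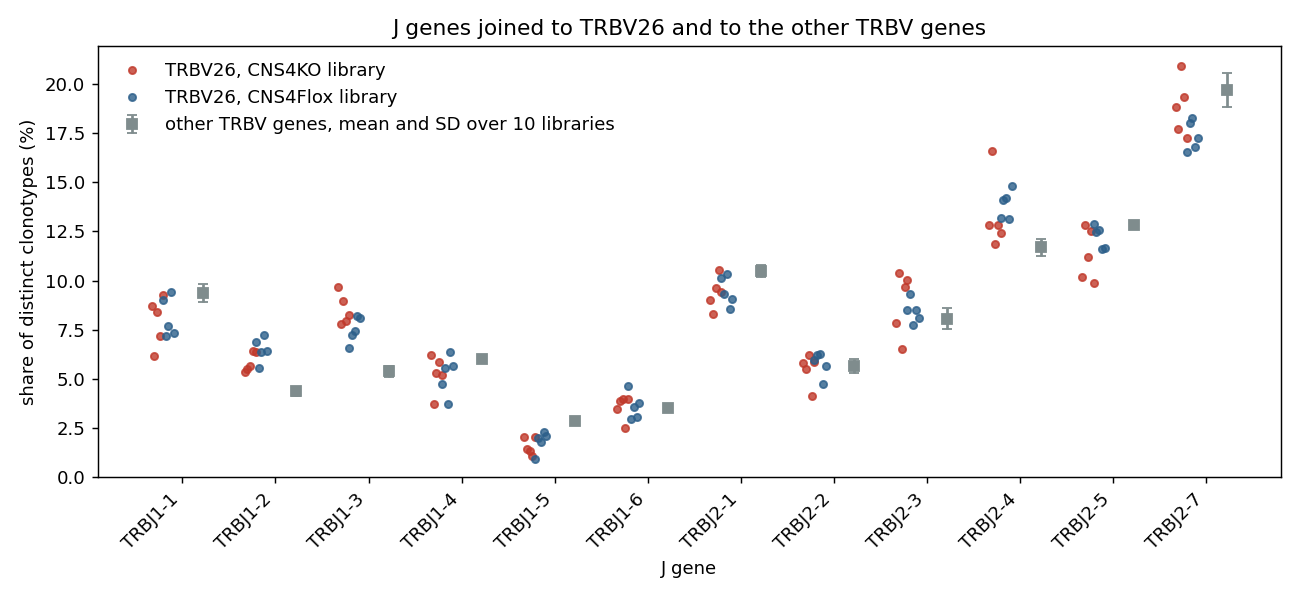
Share of distinct clonotypes (%) joined to each of the 12 J genes. Circles are TRBV26 in the 5 CNS4KO and the 5 CNS4Flox libraries, and squares are the mean and SD over 10 libraries of all other TRBV genes. The TRBJ1-2 and TRBJ1-3 circles lie above the square, the TRBJ1-5 circles below it, and the circles of both groups overlap at every J gene.

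Between CNS4KO and CNS4Flox, none of the 12 pairs of TRBV26 with a J gene passed, by counts or by distinct clonotypes. Among all V-J pairs, edgeR called 0.395% of 253 by counts and 1.2% of 249 by clonotypes, and DESeq2 likewise called 0 of the 12 TRBV26 pairs. By counts 2 of the 12 had an unadjusted p under 0.05 in edgeR, TRBJ1-6 and TRBJ2-1. The TRBV26 pair with TRBJ1-6 had a log2 fold change of 0.70 (SE 0.26, edgeR adjusted p = 0.508), and that with TRBJ2-1 of 0.62 (SE 0.29, adjusted p = 0.566). By distinct clonotypes 3 pairs were higher and 9 lower in CNS4KO, with log2 fold changes between -0.21 and 0.15.

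Single expanded receptors set the J shares by counts in several CNS4KO libraries. TRBJ2-1 took 21.4% of TRBV26 counts in CNS4KO 3, and 8.63% once the largest clonotype, of 250 counts, was left out. TRBJ1-6 took 10.99% in CNS4KO 4, and 2.54% without the largest clonotype, of 153 counts. TRBJ1-1 took 18.7% in CNS4KO 1, and 9.57% without the clonotype of 217 counts. Among CNS4Flox libraries, TRBJ2-7 took 19.2% in CNS4Flox 3, and 16.3% without its largest clonotype, of 63 counts.

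TRBV26 CDR3 loops were shorter than those of the other TRBV genes. The mean length, counted from the first cysteine to the last phenylalanine, was 13.5 ± 0.047 residues against 13.7 ± 0.024 (SD, n = 10 libraries). The difference was -0.29 residues and negative in 10 of 10 libraries (exact sign-flip permutation test, adjusted p = 0.00244 over 10 features). TRBV26 ranked 19 of 22 V genes from the longest, between TRBV4 at 13.6 and TRBV15 at 13.4 residues. Lengths of 13 residues made up 29.4% of TRBV26 and 24.7% of other clonotypes, and lengths of 15 residues 14.8% of TRBV26 and 19.5% of the others. Loops of 17 or more residues were 0.749% of TRBV26 and 1.85% of other clonotypes.

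With D matches extended along the germline D, TRBV26 clonotypes had fewer inserted bases on average than those of any other V gene. The mean per clonotype was 2.70, 2.60, 2.64, 2.63 and 2.60 in the CNS4KO libraries and 2.73, 2.73, 2.64, 2.59 and 2.64 in the CNS4Flox libraries. Over the 10 libraries it was 2.65 ± 0.053, against 3.13 ± 0.041 for the other TRBV genes, lower in 10 of 10 libraries (exact permutation test, adjusted p = 0.00244). TRBV26 had the lowest mean of 22 V genes, followed by TRBV23 at 2.78. Clonotypes without any inserted base were 13.1% ± 0.98 of TRBV26 and 9.52% ± 0.54 of the others (SD, n = 10 libraries), higher in 10 of 10 libraries with the same adjusted p. On this measure TRBV26 was the highest of 22, next to TRBV23 at 12.9%. Both ranks are for extended D matches only, and the distance from TRBV23 was not tested.

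The number of inserted bases depends on where the D segment is taken to end. As deposited, the D match touched the J match in 0 of 9531 TRBV26 clonotypes with a D call, and in 2960 of them the next bases continued the D segment. The D match was therefore extended along the germline D, a choice made after seeing the tables. With positions as deposited, 0.743% of TRBV26 clonotypes had no inserted base, instead of 13.1%, and the differences from the other TRBV genes were -0.46 bases and 0.36 percentage points, both past the threshold. The deposited V match held a mismatch in 3.62% of TRBV26 and 3.91% of other clonotypes, and ending it there gave -0.49 bases and 3.59 percentage points. All bases between the V and J matches, which need no D position, averaged 8.41 in TRBV26 and 9.55 in the other TRBV clonotypes. TRBJ1-6 clonotypes, 360 in all, were left out of the insertion values, because the tables named 355 of them TRBJ2-5.

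**Figure D2:**
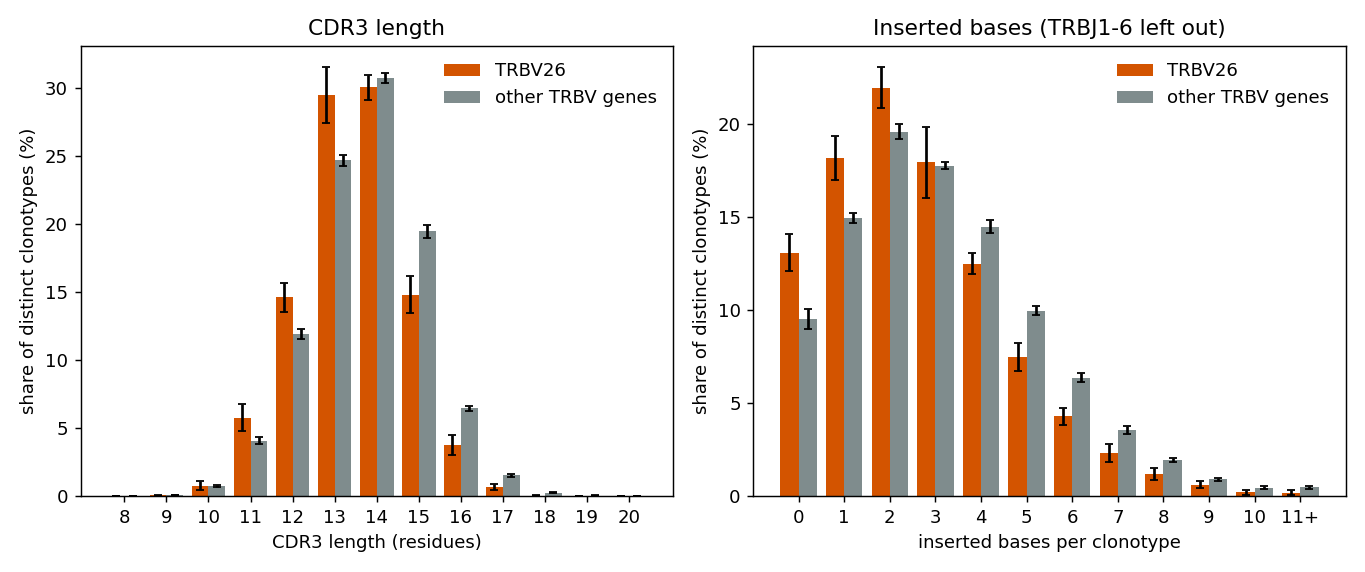
Share of distinct clonotypes (%) by CDR3 length in residues (left) and by number of inserted bases (right), for TRBV26 and for all other TRBV genes. Bars are means over 10 libraries and error bars are SDs. TRBV26 exceeds the others at 11 to 13 residues and at 0 to 2 inserted bases, and is below them from 14 residues and from 4 inserted bases up.

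D segment calls differed from those of the other TRBV genes together as well. TRBD2 was called in 23.2% ± 2.27 of TRBV26 clonotypes with a D call and in 36.2% ± 0.42 of the others (SD, n = 10 libraries). It was lower in 10 of 10 libraries (exact permutation test, adjusted p = 0.00244). TRBV26 was the lowest of 22 V genes, next to TRBV29 at 23.5%. TRBD2 lies downstream of the TRBJ1 cluster and therefore joins TRBJ2 genes, so the share among TRBJ2 clonotypes is the closer measure. There it was 30.5% ± 2.87 for TRBV26 and 48.7% ± 0.69 for the others. Among D matches found in 1 of the 2 D segments only, with TRBJ2 genes, it was 38.2% ± 3.24 and 57.5% ± 0.80, lower in 10 of 10 libraries (exact permutation test, unadjusted p = 0.00195). With TRBJ1 genes, where a TRBD2 call runs against this gene order, TRBD2 calls were 7.97% of TRBV26 and 8.81% of other D calls. The D calls are thus not free of error. Of the 9531 D matches of TRBV26, 1836 were 3 bases or shorter as deposited, and 850 were on the opposite strand. The D match averaged 6.08 bases in TRBV26 and 6.63 in the others. No D was called in 5.48% of TRBV26 and 3.54% of other clonotypes. The effect of these differences on the TRBD2 share was not tested.

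**Figure D3:**
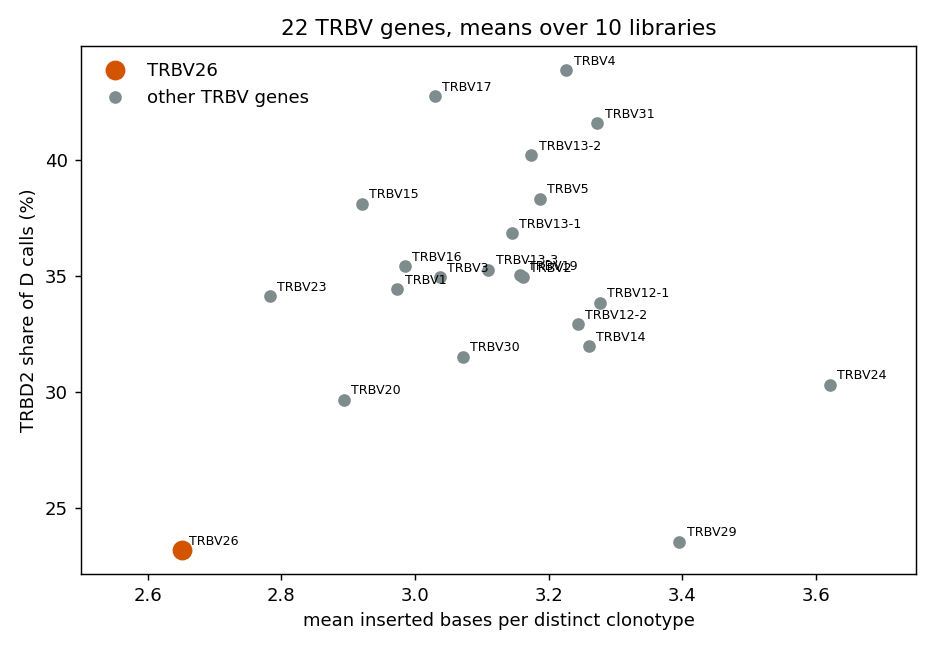
Mean inserted bases per distinct clonotype (x axis) and share of D calls that are TRBD2 (%, y axis) for the 22 TRBV genes, as means over 10 libraries. TRBV26, the large circle, is lowest on both axes, at 2.65 bases and 23.2%, and TRBV29 has a like TRBD2 share at a higher number of inserted bases.

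The residues differed in the same clonotypes. Glycine, which the D segments encode in their G-rich reading frames, occurred 1.08 ± 0.036 times per TRBV26 CDR3 and 1.36 ± 0.016 times in the others (SD, n = 10 libraries), lower in 10 of 10 libraries and lowest of 22 V genes (exact permutation test, adjusted p = 0.00244). Net charge, arginine and lysine minus aspartate and glutamate, was -0.39 ± 0.03 in TRBV26 and -0.58 ± 0.01 in the others, higher in 10 of 10 libraries with the same adjusted p, and TRBV26 ranked 8 of 22. Against the median of the other V genes both differences were smaller and still passed, at -0.18 in place of -0.29 glycines and 0.076 in place of 0.188 in charge (exact permutation test, adjusted p = 0.00279). Leucine, which the TRBV26 end encodes at position 5 of the CDR3, stood there in 54.0% of TRBV26 clonotypes, followed by proline at 14.2% and arginine at 13.6%. A cysteine inside the loop was found in 0.134% of TRBV26 and 6.23% of other clonotypes. That gap came from TRBV1, where 99.6% of clonotypes had one: against the median of the other V genes, TRBV26 was higher by 0.075 percentage points.

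None of these features of TRBV26 was shown to differ between CNS4KO and CNS4Flox. The mean CDR3 length was 13.4 ± 0.040 residues in CNS4KO and 13.5 ± 0.054 in CNS4Flox (SD, 5 libraries a group), a difference of -0.02 residues (exact permutation test, adjusted p = 0.5). Mean inserted bases were 2.63 ± 0.041 in CNS4KO and 2.67 ± 0.062 in CNS4Flox (exact permutation test, adjusted p = 0.429). Clonotypes without inserted bases were 13.4% ± 1.01 in CNS4KO and 12.8% ± 0.92 in CNS4Flox (exact permutation test, adjusted p = 0.417). The TRBJ2 cluster took 67.2% ± 2.92 in CNS4KO and 67.2% ± 2.5 in CNS4Flox (exact permutation test, adjusted p = 1). The distance of TRBV26 from the other TRBV genes was also compared between the groups for 10 features, and the smallest p was for net charge. TRBV26 exceeded the others by 0.173 ± 0.023 in CNS4KO and by 0.203 ± 0.011 in CNS4Flox (exact permutation test, unadjusted p = 0.0317, adjusted p = 0.317).

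At equal counts, TRBV26 repertoires in CNS4KO libraries held fewer distinct clonotypes and were less even than in CNS4Flox libraries. Each library was brought to 956 TRBV26 counts, the smallest total, before these values were compared. At that depth 573, 615, 563, 574 and 706 distinct clonotypes were expected in the CNS4KO libraries, against 815, 772, 712, 765 and 780 in the CNS4Flox libraries. The groups did not overlap, although CNS4KO 5 and CNS4Flox 3 lay close together. The mean was 606 ± 59.5 in CNS4KO and 769 ± 37.1 in CNS4Flox (SD, 5 libraries a group), a ratio of 0.789. The two-sided exact permutation test gave p = 0.00794, the smallest value that 5 against 5 libraries allow, and an adjusted p = 0.0357 over 9 values.

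Shannon entropy, in natural log units, was 5.89 ± 0.320 in CNS4KO and 6.50 ± 0.101 in CNS4Flox (exact permutation test, adjusted p = 0.0357). The groups overlapped in entropy, with 6.38 in CNS4KO 5 and 6.33 in CNS4Flox 3. The 10 most abundant clonotypes held 24.6%, 17.4%, 25.9%, 21.99% and 9.001% of TRBV26 counts in the CNS4KO libraries, against 6.38%, 8.44%, 10.7%, 7.32% and 6.36% in the CNS4Flox libraries. CNS4KO 5 lay inside the CNS4Flox range and the other 4 CNS4KO libraries above it. The mean was 19.8% ± 6.85 in CNS4KO and 7.83% ± 1.80 in CNS4Flox (SD over 5 libraries a group, exact permutation test, adjusted p = 0.0357). Clonotypes with a count of 1 were 78.9% ± 1.73 in CNS4KO and 85.9% ± 2.30 in CNS4Flox (exact permutation test, adjusted p = 0.0357). Leaving out both libraries of the overlapping pair widened the differences, to -202 clonotypes and 15.3 percentage points. All 4 measures then had an exact permutation p = 0.0286, the smallest that 4 against 4 libraries allow. With 4 of 9 values at that floor, the adjusted p could be no lower than the 0.0643 found. Without CNS4Flox 1, CNS4Flox 2, CNS4Flox 4 or CNS4Flox 5 alone, all 4 measures kept their direction and missed the threshold (exact permutation test, adjusted p = 0.0536). All 4 also missed it without thinning, where distinct clonotypes differed by -159 (exact permutation test, adjusted p = 0.314). Without clonotypes with a count of 1, distinct clonotypes differed by -1.87 (adjusted p = 0.976) and the share of the 10 most abundant by 12.3 percentage points (adjusted p = 0.286, exact permutation test). Without the single largest TRBV26 clonotype of each library, the share of the 10 most abundant was 7.81% to 16.7% in CNS4KO and 4.77% to 7.94% in CNS4Flox, where CNS4KO 5 again lay inside the CNS4Flox range.

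**Figure D4:**
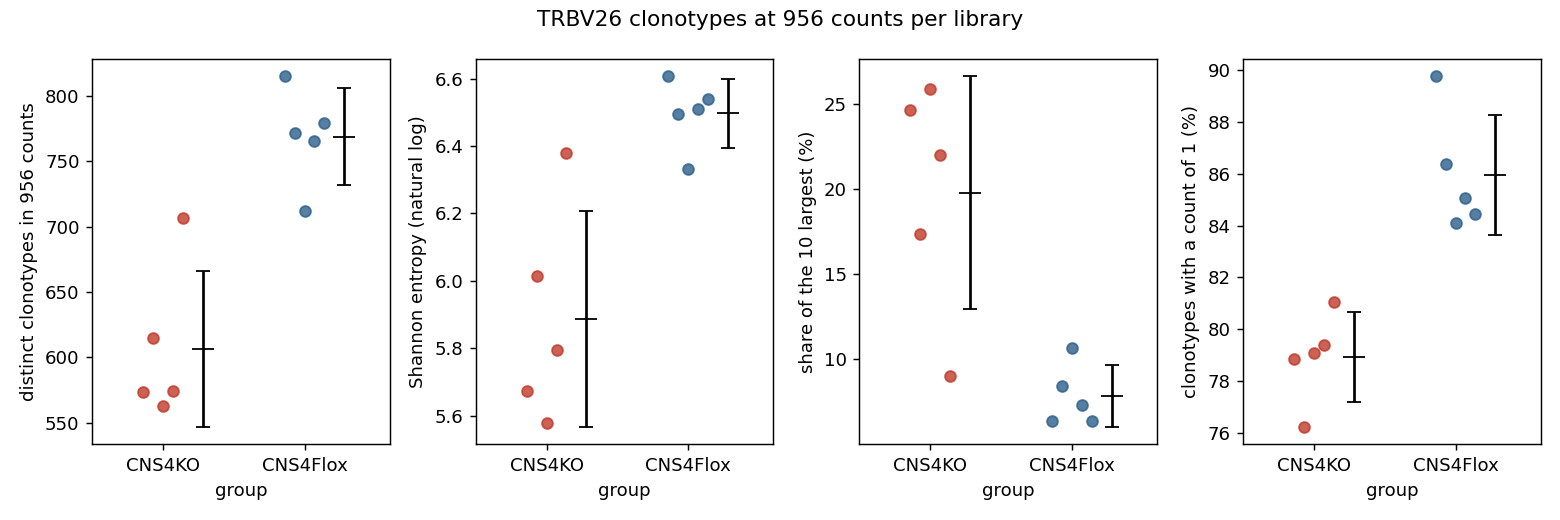
The 4 evenness measures of TRBV26 clonotypes at 956 counts per library, from left to right distinct clonotypes, Shannon entropy (natural log), share of counts in the 10 largest clonotypes (%) and share of clonotypes with a count of 1 (%). Points are libraries and bars are the mean and SD of 5. CNS4KO libraries lie below CNS4Flox libraries in distinct clonotypes and in clonotypes with a count of 1. CNS4KO 5 is the CNS4KO library nearest to the CNS4Flox values in all 4 panels, and its entropy lies above that of CNS4Flox 3.

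The lower number of clonotypes was not found in TRBV26 alone. At 300 counts, which 19 of the 22 TRBV genes reached in every library, the mean was lower in CNS4KO for 19 of 19 genes, with ratios of 0.795 to 0.975 and a median of 0.930. TRBV26 had the fifth lowest ratio, 0.843, with 229 ± 20.1 clonotypes in CNS4KO and 271 ± 7.92 in CNS4Flox (SD, 5 libraries a group). Every CNS4KO library was below every CNS4Flox library for 63.2% of these genes. At this depth the 2 groups overlapped for TRBV26. Without CNS4KO 5 and CNS4Flox 3, the mean was lower in CNS4KO for 19 of 19 genes, 94.7% of the genes had every CNS4KO library below every CNS4Flox library, TRBV26 among them, and its ratio was 0.803, again the fifth lowest.

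The largest TRBV26 clonotypes reached higher counts in CNS4KO. They had 217, 61, 250, 153 and 34 counts in the CNS4KO libraries and 16, 34, 63, 19 and 25 in the CNS4Flox libraries, so the groups overlapped at CNS4KO 2 and CNS4KO 5. As a share of TRBV26 counts this was 1.84% to 13.96% in CNS4KO and 1.35% to 3.44% in CNS4Flox. The CNS4KO 3 clonotype, at 13.96% (95% Wilson interval 12.4% to 15.6%), was the most abundant of all TRB clonotypes in its library. The ranks among TRB clonotypes were 2, 3, 1, 3 and 8 in the CNS4KO libraries and 1, 3, 2, 3 and 2 in the CNS4Flox libraries, so a high rank was found in both groups.

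Clonotypes with 10 or more counts numbered 12, 5, 10, 16 and 8 in the CNS4KO libraries and 2, 6, 10, 5 and 2 in the CNS4Flox libraries. They held 7.63% to 25.7% of TRBV26 counts in CNS4KO and 2.19% to 10.04% in CNS4Flox. The highest CNS4Flox share was that of CNS4Flox 3, where 5 of the 10 such clonotypes were also in CNS4KO 5. Each of the 10 largest clonotypes was found in 1 library only by its nucleotides. By amino acids, the CNS4KO 3 clonotype occurred in 6 libraries, the CNS4Flox 2 clonotype in 3, and those of CNS4KO 5 and CNS4Flox 3 in 2. No TRBV26 clonotype of the same library differed from any of them by a single base, and none of these CDR3 sequences was listed under another V gene in its library. These largest receptors carried 1 to 5 inserted bases where these could be counted, with short D matches taken as called.

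Most TRBV26 receptors were private to a library. Of 8106 amino acid clonotypes, 86.4% were found in 1 library and 13.6% in 2 or more, beside 10.4% in 2 or more for the other TRBV genes. Without CNS4KO 5 and CNS4Flox 3 these shares were 11.4% for TRBV26 and 8.50% for the others. In each library, 27.2% to 32.2% of TRBV26 clonotypes had their amino acid sequence in at least 1 other library, against 21.1% to 25.2% for the other TRBV genes. The mean difference was 6.96 percentage points, higher in 10 of 10 libraries (exact permutation test, adjusted p = 0.00244), and TRBV26 ranked 3 of 22 after TRBV31 and TRBV12-1. A shared clonotype counts in every library that holds it, so the 10 values depend on each other, which the test does not allow for. Genes with more clonotypes have more to share, and the rank was not corrected for this. After thinning to equal counts, the share was 24.7% ± 1.80 in CNS4KO and 23.3% ± 1.497 in CNS4Flox (SD over 5 libraries a group, exact permutation test, adjusted p = 0.371).

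Shared TRBV26 receptors were shorter and nearer to germline than private ones. As a description, nucleotide entries of clonotypes found in 1 library averaged 13.6 residues and 3.09 inserted bases, with 7.93% free of insertions. Those of the 53 clonotypes found in 5 or more libraries averaged 12.6 residues and 0.991 inserted bases, with 40.9% free of insertions. The 53 held 2.43% to 18.8% of TRBV26 counts per library, the highest in CNS4KO 3, whose clonotype of 250 counts is one of them by amino acids.

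**Figure D5:**
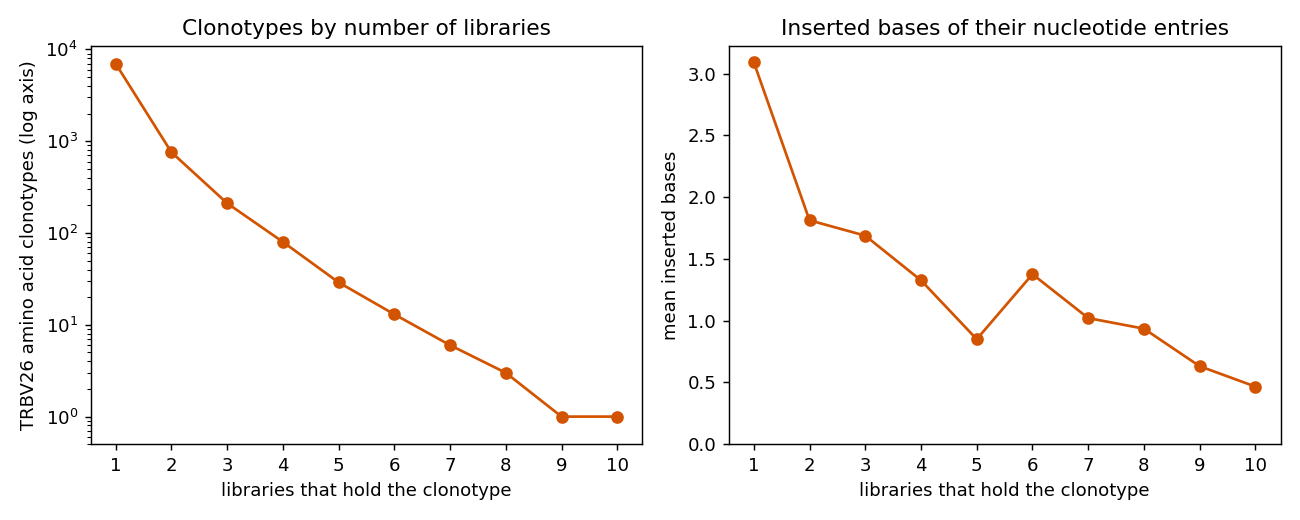
Number of TRBV26 amino acid clonotypes found in 1 to 10 libraries (left, log axis) and mean inserted bases of their nucleotide entries (right). The number falls to 1 clonotype in all 10. The mean inserted bases are 3.09 at 1 library and 0.467 at 10, with 0.850 at 5 libraries and 1.38 at 6.

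The clonotype found in all 10 libraries joined TRBJ2-7 in a loop of 12 residues. It had 6, 4, 1, 3 and 1 counts in the CNS4KO libraries and 2, 2, 1, 1 and 3 in the CNS4Flox libraries, so no library held it as an expanded clone. It was made from 10 different nucleotide sequences, the most of any TRBV26 clonotype together with the TRBJ2-4 clonotype found in 9 libraries. The 4 most widespread versions are shown with the bases at which they differ in capitals.
version 1, in 3 libraries: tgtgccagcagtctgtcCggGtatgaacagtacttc
version 2, in 2 libraries: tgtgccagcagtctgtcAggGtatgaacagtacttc
version 3, in 2 libraries: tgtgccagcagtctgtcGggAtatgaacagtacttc
version 4, in 2 libraries: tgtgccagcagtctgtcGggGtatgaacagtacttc
These 4 versions keep the full V end and differ at 2 positions after it.

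The TRBJ2-4 clonotype had 13 counts in all in CNS4KO and 13 in CNS4Flox, in 5 and 4 libraries. The clonotype next in number of versions joined TRBJ2-5 in a loop of 11 residues, had 8 versions in 7 libraries, and held 3 counts in CNS4KO and 10 in CNS4Flox. Over all TRBV26 amino acid clonotypes, 12.1% had 2 or more nucleotide versions, beside 9.20% for the other TRBV genes.

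No shared TRBV26 clonotype differed in abundance between the groups. Of 666 TRB amino acid clonotypes found in at least 5 libraries, edgeR called 0% (37 at an unadjusted p under 0.05), and DESeq2 called 0. The 53 tested TRBV26 clonotypes included 22 with a higher and 31 with a lower value in CNS4KO, with a median log2 fold change of -0.10 beside -0.04 over all 666. The smallest unadjusted p was 0.0505 (edgeR adjusted p = 0.851), for a TRBJ2-4 clonotype with 0, 0, 1, 0 and 0 counts in the CNS4KO libraries and 1, 0, 3, 1 and 1 in the CNS4Flox libraries. At counts this low a difference was not detectable unless it was large.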

How the data were processed

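TCR beta chain clonotypes were analysed in 5 CNS4KO and 5 CNS4Flox libraries of splenic Treg cells. Per the file headers, each deposited table gives a count per clonotype and a fraction of the library's total. The tables also hold CDR3 sequences, gene names and match positions, per the file headers. The genome build is mm10, per the submitters' processing notes. The aligner and the clonotype caller are not given in the sources used here. Per the labels' protocols, RNA was reverse transcribed with a template switch adapter and amplified for both chains, so beta chains were selected here by their CDR3 end. Entries ending like TRBJ1-6 were set to that gene.

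Clonotypes were V gene, J gene and CDR3 nucleotides, joined within a library. Unless weighted by count, each distinct clonotype entered length, J and insertion values once. Inserted bases were those between the V, D and J matches. D matches were extended along the germline D on either strand. The germline D sequences came from general knowledge, since no file used here holds them, and the values with D positions as deposited are given beside the results. Richness was the rarefied expectation, and other thinned values were means of 20 draws at 956 counts. The common total was set anew wherever libraries or clonotypes were left out. Per-library values were compared by two-sided exact permutation tests over 252 assignments (smallest p = 0.00794), or for TRBV26 against the other TRBV genes by sign flips over 1024 assignments, with Benjamini-Hochberg adjustment at 0.05 over 9 values or 10 features. The quasi-likelihood test of edgeR served for V genes, V-J pairs and clonotypes, fitted on the whole TRB table without TMM and with the TRB total as library size. V genes and pairs needed 10 counts in 5 libraries, and clonotypes presence in 5 libraries. The procedures were tested on simulated data.

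Replicates were numbered in sample order within a group. Named clonotypes are the most abundant TRBV26 clonotype of each library, the 5 amino acid clonotypes in the most libraries and the 3 with the most nucleotide versions. Named V genes are the 3 most alike by J profile, the 3 most alike by share, and members of the 3 gene lists, and all J genes paired with TRBV26 are covered. The members, lists and tests were chosen with earlier results of these data known. Extending the D match, leaving TRBJ1-6 out of insertion values, testing single J genes against the other TRBV genes, thinning every TRBV gene to 300 counts, ending V matches at a mismatch, and leaving the overlapping pair out of the 300-count and sharing values were chosen after the tables were seen. Alternatives were other normalisations and filters, weighting by count, fixed J weights, other thinning, and leaving out libraries, the shared clonotypes of the overlapping pair, or clonotypes with a count of 1. Fits ran in edgeR 4.0.16 and DESeq2 1.42.0 under R 4.3.3. Other values came from scipy 1.17.1, pandas 2.3.3 and numpy 2.4.6 under Python 3.11.15, and plots from matplotlib 3.10.9. Gene positions are from RefSeq.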

Additional observations from a re-analysis of the deposited data

Results flagged for a closer look

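Each measure was checked in both groups for a library far from the other 4 (Dixon's test at 95%), 86 checks in all. Chance gives about 1 such value in 20 groups, and 7 were found. The TRBV26 share of TRB counts was 6.69% in CNS4Flox 4, where the other CNS4Flox libraries had 5.46% to 5.64%. Clonotypes with a count of 1, without thinning, were 88.4% in CNS4Flox 1 and 78.7% to 81.5% in the others. TRBD2 calls were 20.4% in CNS4KO 3 and 24.1% to 25.3% in the other CNS4KO libraries. TRBJ1-1 took 18.7% of TRBV26 counts in CNS4KO 1 and 5.81% to 7.85% in the others. TRBJ1-5 took 0.838% of TRBV26 counts in CNS4KO 3 and 1.45% to 1.67% in the others. TRBJ2-2 took 7.49% of counts in CNS4Flox 5 and 4.87% to 5.59% in the others. TRBJ2-4 was joined in 16.6% of distinct TRBV26 clonotypes of CNS4KO 2, the library with the fewest TRBV26 counts, and in 11.8% to 12.8% in the other CNS4KO libraries.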

How the results depend on the processing

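Of 651 recomputed values, 573 kept direction and call. No paired analysis was possible because the labels carry no replicate numbers. Leaving out each library, distinct clonotypes differed between the groups by -208 to -151, entropy by -0.73 to -0.53, the share of the 10 most abundant by 10.4 to 14.6 points and clonotypes with a count of 1 by -7.53 to -6.05, with adjusted p of 0.0179 to 0.0536. Without CNS4Flox 1, 2, 4 or 5 these 4 missed the threshold. They also missed it without thinning (-159, -0.62, 11.98 and -10.1) and without clonotypes with a count of 1 (-1.87, -0.34, 12.3 and 20.985). The 20.985 cannot be read as a reversal. Counts of 1 had been removed, so those counted came from thinning, which did not touch the library with the smallest total left. Without the overlapping pair (-202, -0.77, 15.3 and -8.00), all 4 had an exact permutation p = 0.0286, the smallest that 4 against 4 libraries allow. The adjusted p there was 0.0643. The TRBV26 log2 fold change ran from -0.0094 to 0.16 by counts, below 0 without CNS4KO 1, and from -0.14 to 0.0088 by clonotypes, above 0 without CNS4KO 2, CNS4KO 4 or CNS4Flox 4. The TRBJ2 share differed by -1.02 to 0.70 points, by -1.68 without clonotypes with a count of 1, by -0.037 without the shared clonotypes of the pair and by -2.66 weighted by count. The share without inserted bases differed by -0.64 points without clonotypes with a count of 1. Against the other TRBV genes, clonotypes with a count of 1 differed by -2.65 to -1.86, past the threshold in 4 of 10 omissions, and by -1.77 against the median gene. The TRBJ2 share there differed by -1.66 to -0.97, by -2.10 weighted by count and by -1.62 against the median gene. Interior cysteine differed by 0.075 against the median gene. TRBJ1-6 ran from -0.086 to 0.15 and TRBJ2-2 from -0.13 to 0.085 over omissions, and TRBJ2-1 was 0.45 weighted by count. The distances between groups, none past the threshold, ran from -0.23 to 1.24 for the TRBJ2 share, -0.87 to 0.12 for sharing, -1.55 to 0.35 for a count of 1 and -0.27 to 0.15 for no insertion. In the range for sharing, matches to the left-out library still counted. Weighted by count the distances were -1.82 for the TRBJ2 share, 0.57 for sharing and -0.36 for TRBD2. Without clonotypes with a count of 1 they were -0.97 for the TRBJ2 share, 0.0018 for net charge, 1.45 for sharing and -0.61 for TRBD2. The causes of these shifts were not tested. Depth limits what single clonotypes can show.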
